A study of Homo sapiens with 12 samples.

Results

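The genes described here are the long intergenic noncoding RNAs (lincRNAs) that A375 and SKMel28 melanoma cells express. They were chosen by their measured level: every symbol in the deposited count files made of LINC and digits whose mean reached 1 CPM in at least 1 of the 4 groups. CPM is a gene's reads divided by the library's total of gene reads, times 1000000. Of 880 LINC symbols among 26499 genes, 150 met this rule; 363 had no read in any library and 367 had reads but stayed under 1 CPM in every group. The same level was reached by 14109 genes of all kinds. Because the rule reads the expression level itself, counts over the 150 genes are descriptions.

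A375 and SKMel28 are established human melanoma lines, and each was sequenced in a sensitive and a vemurafenib-resistant form, with 3 libraries of poly(A)-enriched RNA per group and 12 in all. Vemurafenib blocks the mutant BRAF kinase, and the series was built to study the IGF1 pathway in resistance to BRAF and MEK inhibitors. All cells grew with 10% fetal bovine serum. The growth medium of resistant cells held vemurafenib at 1 µmol/L, while the labels name no inhibitor for sensitive cells, so acquired resistance and the drug's presence cannot be told apart. Whether a resistant form is a clone or a pool, and whether libraries of a group stem from different dishes, is not in the labels. The p-values given here therefore speak only of the variation among these libraries.

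LincRNAs are RNA polymerase II transcripts, mostly spliced and polyadenylated like mRNAs, that carry no long open reading frame and lie between protein-coding genes. They are known for low levels and for expression restricted to particular cell types, and some act in the nucleus on chromatin or on the gene beside them, others in the cytoplasm by binding proteins or microRNAs. In melanocytic cells the best known is SAMMSON, which lies beside the gene of the lineage factor MITF and is required by many melanoma cells.

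Gene reads ran from 28496518 to 37721363 per library, so 1 CPM stood for at least 28.5 reads. The melanocyte markers MLANA, PMEL, TYR, DCT and TYRP1 were each between 0 and 0.684 CPM in both A375 groups and between 141 and 5673 CPM in the SKMel28 groups, and SOX10 went from 343 CPM in sensitive to 0.148 CPM in resistant A375 cells. All 8 melanocyte markers listed summed to 397 and 34.9 CPM in sensitive and resistant A375 cells, and to 7114 and 10217 CPM in SKMel28; the part of this shift in the results was not tested. Leukocyte markers other than CD68, which tumour cells also express, were at most 0.0916 CPM. Summed markers ran from 1.31 to 2.88 CPM for endothelial cells, from 3.78 to 23.7 CPM for fibroblasts and up to 129 CPM for keratinocytes, where KRT10 made up most of the sum. In RNA from whole cultures, fewer cells making a transcript and less of it per cell cannot be told apart.

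The expressed lincRNAs were low and uneven between the lines. Their median level in the highest group was 4.98 CPM, against 38.4 CPM over all 14109 expressed genes, and 1.68 against 7.46 CPM per kb of exon, a scale on which genes of different length can be compared. They were also shorter, with a median exon length of 2870 bases against 5072. Of the 150, 62 (41.3%) reached 1 CPM in all 4 groups, where 79.1% of all expressed genes did. The level was reached in A375 alone by 37 (24.7%, against 8.86% of all expressed genes) and in SKMel28 alone by 29 (19.3%, against 5.90%). A low level by itself brings more genes near this limit, and its part was not tested. Of the 37, 20 (13.3% of the 150, against 3.09%) stayed under 0.1 CPM in both SKMel28 groups. Of the 29, 13 (8.67%, against 1.92%) stayed under 0.1 CPM in both A375 groups. Just inside the limit of 1 CPM lay LINC01583 (1.03), LINC01232 (1.03), LINC00638 (1.04) and LINC00880 (1.07 CPM), and just outside it LINC00923 (0.982), LINC00899 (0.938), LINC00672 (0.927) and LINC01410 (0.925 CPM).

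**Figure D1:**
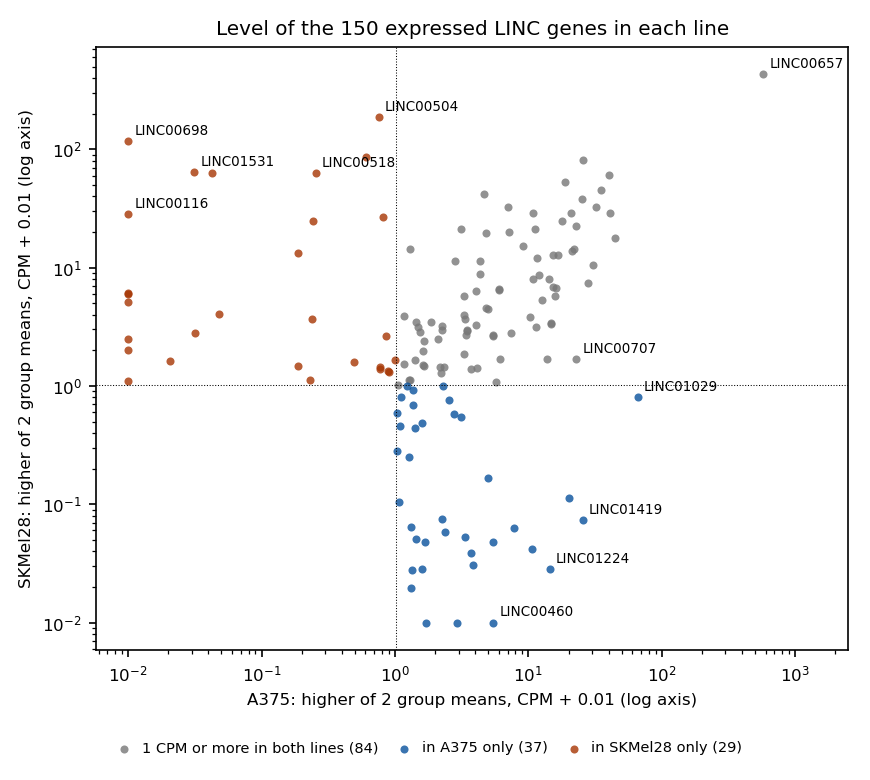
Level of each of the 150 expressed LINC genes, with the higher of the 2 A375 group means on the x axis and the higher of the 2 SKMel28 group means on the y axis (CPM + 0.01, log axes; dotted lines at 1 CPM). The 84 genes at 1 CPM or more in both lines are grey, and the 37 in A375 only and 29 in SKMel28 only lie to the lower right and upper left, many of them near 0 in the other line.

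Several genes of this kind were abundant in a single line. Ranked by the fitted log2 difference between sensitive cells, the first genes on the A375 side were LINC01224 (13.5, 13.3 and 12.2 CPM in the A375 libraries), LINC00460, LINC00491, LINC00540, LINC00886 and LINC01419. For the first 5 there was no read in sensitive SKMel28 cells, and with 3 reads over the group as the floor they were at least 415-fold, 172-fold, 80.2-fold, 65.2-fold and 53.4-fold higher in A375. LINC01419 stood at 25.5 ± 1.43 CPM in sensitive A375 and 0.0637 ± 0.110 CPM in sensitive SKMel28 cells. The fitted difference of a gene with no read in a group depends on the prior count, so this order need not follow the ratio of reads: by pooled CPM LINC01419 was 406-fold and LINC01029 371-fold higher in A375.

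In the other direction, by the same ranking, LINC01531, LINC00116, LINC00698, LINC01443, LINC01356 and LINC01317 had no read in sensitive A375 cells. Against the same floor they were at least 1484-fold, 921-fold, 543-fold, 390-fold, 165-fold and 137-fold higher in sensitive SKMel28 cells. LINC01531 was the most abundant of them there, at 45.8 ± 5.59 CPM. LINC00504, with 10 reads in sensitive A375 cells, was 785-fold higher in sensitive SKMel28 cells by pooled CPM. By edgeR's quasi-likelihood test 123 of the 150 genes (82%) differed between the sensitive lines at an adjusted p below 0.05, where 82.9% of all 15506 genes tested did. Genes that met the level rule in 1 line alone had to differ, so this count is a description.

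Per kb of exon the highest gene by far was LINC00657, now named NORAD, at 85.2 CPM per kb over all 12 libraries. LINC00493 (29.4), LINC00674 (27.4), LINC00998 (25.2), LINC01029 (15.6), LINC00518 (13.6), LINC00504 (13.2), LINC00698 (12.3), LINC00839 (11.3) and LINC01420 (10.0 CPM per kb) followed. This mean pools both lines, and the order after NORAD was that of neither: LINC00698 had no read in sensitive A375 cells and LINC01029 was at 0.179 CPM in sensitive SKMel28 cells. LINC00493, LINC00998 and LINC01420 encode small proteins and are among the 11 of the 150 that RefSeq now lists as coding genes. In all, 37 of the 150 carry another symbol in RefSeq today, and 138 are listed there as lncRNA.

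NORAD is a cytoplasmic RNA induced by DNA damage that binds the Pumilio proteins, regulators of mRNA decay, through repeated copies of an 8-base element. It is an unspliced gene at chr20:36045622-36050960 on the minus strand (GRCh38, GENCODE 29), 5339 bases long. The element TGTANATA, searched on the sense strand, occurs 15 times in its transcript. The next highest count among 141 genes with a transcript was 10, in the 21221 bases of LINC00632, and 22 genes held any. Pooled over the genes other than NORAD the density was 0.0858 per kb, against 2.81 per kb in NORAD. The 240 bases from base 1219 to base 1458 of the transcript hold 3 of the elements, which are in capitals, and show the repeat that sets NORAD apart from the other 140 in sequence.
NORAD: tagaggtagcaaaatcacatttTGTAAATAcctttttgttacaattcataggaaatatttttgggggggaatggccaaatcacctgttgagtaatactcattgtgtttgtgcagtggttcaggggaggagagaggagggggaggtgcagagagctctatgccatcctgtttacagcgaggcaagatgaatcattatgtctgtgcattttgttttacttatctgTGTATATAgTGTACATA

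NORAD was measured at 569, 571 and 578 CPM in the sensitive A375 libraries and at 482, 491 and 517 in the resistant ones. In SKMel28 it stood at 328, 327 and 306 CPM in sensitive and 435, 439 and 414 in resistant libraries. Resistant libraries were all lower in A375 and all higher in SKMel28, with no overlap in either line. The log2 fold change was -0.24 ± 0.03 (SE, edgeR adjusted p = 6.40e-08) in A375 and 0.46 ± 0.03 (adjusted p = 4.35e-16) in SKMel28, and the difference between the lines was -0.69 ± 0.05 (adjusted p = 5.73e-17). NORAD lies on 20q, where the median coding gene moved by -0.36 in A375 and -0.16 in SKMel28.

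The 150 genes together took a larger share of gene reads in resistant than in sensitive SKMel28 cells. Their sum was 1464, 1430 and 1369 CPM in the sensitive and 1898, 1900.1 and 1887 CPM in the resistant SKMel28 libraries, a ratio of 1.33. In A375 it was 1526, 1518 and 1530.1 CPM in sensitive and 1439, 1433 and 1480.2 in resistant libraries, a ratio of 0.952. Over all 880 LINC symbols, with no rule on the level, the ratios were 1.32 in SKMel28 and 0.955 in A375. The 150 were chosen by their level in these libraries, so the sums are a description with no test.

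Without NORAD the sum was 952 ± 5.41 CPM in sensitive and 954 ± 10.7 CPM in resistant A375 cells (SD, n = 3, ratio 1.00). In SKMel28 the ratio without it stayed at 1.33. The largest gains there were of 5 genes: NORAD, LINC00504, LINC00698, LINC00520 and LINC01443 gained 109, 107, 101, 57.0 and 51.2 CPM, which was 62.3% of all gains. The largest losses in SKMel28 were of LINC00839 (-34.4 CPM), LINC00152 (-31.0 CPM) and LINC00673 (-25.2 CPM).

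**Figure D2:**
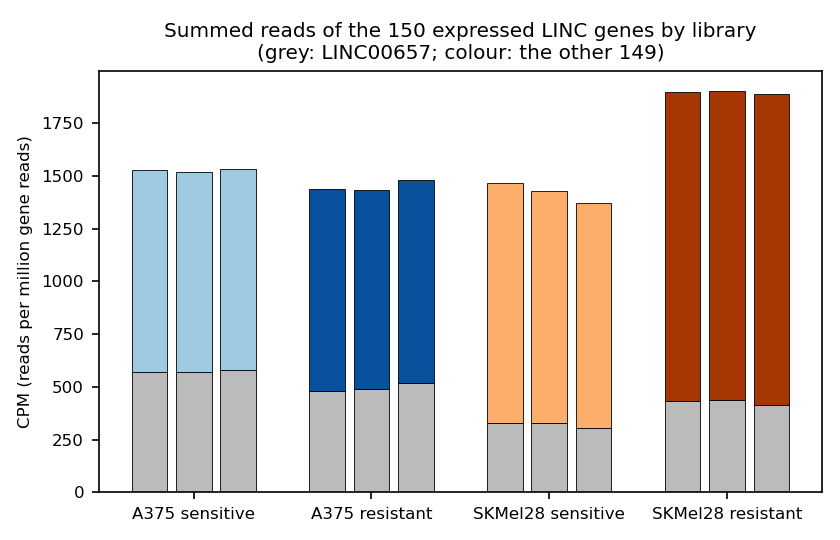
Summed CPM of the 150 genes in each of the 12 libraries, as stacked bars: NORAD (LINC00657) in grey and the other 149 genes in colour. The 3 resistant SKMel28 bars reach 1887 to 1900.1 CPM and stand above the other 9, and in A375 the coloured parts are level between groups while the grey part is lower in resistant cells.

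By edgeR, 64 of the 150 genes changed in resistant A375 cells (42.7%), where 51.3% of all genes tested did. Of them 28 rose (18.7%, against 25%) and 36 fell (24%, against 26.3%). In SKMel28, 95 changed (63.3%, against 70% of all genes tested), with 55 rising (36.7%, against 34.2%) and 40 falling (26.7%, against 35.8%). Fitted changes of at least 2-fold, called or not, were found for 37 of the genes (24.7%, against 12.8% of all genes tested) in A375 and for 63 (42%, against 24.2%) in SKMel28. For 115 of the genes the mean over all 12 libraries reached 1 CPM, a stricter rule that a single high group can still meet. These shares are therefore descriptions too, and the genes compared were not matched in level. Of these, 46 were called in A375 (40%, against 55.5% of all genes at that level) and 80 in SKMel28 (69.6%, against 75.5%). Changes of at least 2-fold, called or not, were found for 20 of the 115 in A375 (17.4%, against 8.61%) and 45 in SKMel28 (39.1%, against 19.1%).

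After NORAD, the largest gains in SKMel28 were of genes that A375 barely expressed. LINC00504 lies at chr4:14470465-14888169. Its level was 86.7, 78.4 and 77.1 CPM in sensitive and 195, 186 and 184 CPM in resistant SKMel28 libraries, with no overlap. The log2 fold change was 1.26 ± 0.05 (SE, edgeR adjusted p = 1.96e-25). In A375 it was at most 0.175 CPM in sensitive libraries and at 1.02, 0.766 and 0.460 CPM in resistant ones, a rise as well (2.80 ± 0.40, adjusted p = 1.14e-07).

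LINC00698, at chr3:62950430-63125062, had no read in any A375 library. In SKMel28 it was at 16.4, 16.9 and 16.8 CPM in sensitive and 114, 119 and 121 CPM in resistant libraries. The groups were far apart, and the log2 fold change of 2.85 ± 0.06 (edgeR adjusted p = 6.59e-33) was the fifth largest rise in SKMel28 among called genes without overlap. LINC00520, which has been studied as a growth-promoting lncRNA in several carcinomas, was at 30.7, 28.7 and 26.0 CPM in sensitive and 84.3, 82.5 and 89.5 CPM in resistant SKMel28 libraries (1.62 ± 0.10, adjusted p = 2.97e-12).

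LINC00518, whose transcript is measured together with PRAME in a skin patch test for melanoma, was an SKMel28 gene too. It was at 42.0, 40.9 and 37.2 CPM in sensitive and 62.7, 61.2 and 64.3 CPM in resistant SKMel28 libraries, without overlap (0.68 ± 0.07, edgeR adjusted p = 7.37e-11). In the A375 libraries it ran from 0.0351 to 0.415 CPM. Its neighbour 8.13 kb away, TFAP2A, a transcription factor of neural crest and melanocytes, went the other way in SKMel28, from 120 to 102 CPM (-0.20, adjusted p = 6.56e-04).

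Of the other SKMel28 rises among the 8 largest, LINC01443 is described with its neighbour, and the rest were of less abundant genes. LINC00968 had no read in the other 9 libraries and stood at 2.54, 2.53 and 2.32 CPM in resistant SKMel28 cells, at least 77.9-fold higher than the floor allowed in sensitive ones. LINC01518 went from 0.0945 to 1.53 CPM, LINC00707 from 0.218 to 1.67 CPM (log2 fold change 2.95), LINC00958 from 0.243 to 1.60 CPM (2.74) and LINC00665 from 0.280 to 1.68 CPM (2.58), each with an edgeR adjusted p of at most 8.14e-07. LINC00668, with 7 reads in the resistant libraries and none in the sensitive ones, was at least 2.09-fold higher.

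Falls in SKMel28 were steep but started from low levels. LINC01356 went from 5.38, 4.88 and 5.04 CPM to 0.0570, 0.147 and 0.0808 CPM, and had no read in A375. LINC01010 went from 2.79 to 0.0756 CPM (log2 fold change -5.11), LINC00326 from 2.82 to 0.125 CPM (-4.45), LINC00565 from 1.84 to 0.0636 CPM (-4.70) and LINC01239 from 1.38 to 0.0386 CPM (-5.03). In all of these the libraries of the groups did not overlap. LINC01204 had 15 reads in sensitive and none in resistant SKMel28 cells, at least 5.58-fold lower. LINC01605 (23 reads against 1) was 25.7-fold lower with a 95% exact binomial counting interval of 4.17 to 1058, and LINC00189 (54 reads against 3) 20.1-fold lower, with an interval of 6.52 to 101.

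Among abundant genes the falls in SKMel28 included LINC00839, from 53.3 ± 1.53 to 18.9 ± 0.587 CPM (-1.46 ± 0.07, edgeR adjusted p = 9.31e-23). LINC00152, now CYTOR, is a cytoplasmic lncRNA raised in many carcinomas. It was at 59.6, 62.1 and 58.6 CPM in sensitive and 28.5, 28.1 and 30.8 CPM in resistant SKMel28 libraries, a fall of -1.01 ± 0.06 (adjusted p = 2.00e-20). In A375 it was at 36.2, 36.4 and 37.1 CPM in sensitive and 38.8, 40.9 and 41.6 CPM in resistant libraries; these did not overlap, but the change of 0.12 ± 0.06 did not pass (adjusted p = 0.0785). CYTOR has a near-identical copy on the same chromosome, MIR4435-2HG, so the split of reads between them is uncertain; the copy moved by -0.55 (adjusted p = 4.21e-11) in SKMel28 and by 0.23 (adjusted p = 0.00152) in A375.

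In A375 the largest falls were of genes with few reads, and 3 of them had no read left in resistant cells. LINC01301 was at 2.23, 2.83 and 2.49 CPM in the sensitive libraries and had no read in any resistant one, at least 79.2-fold lower. LINC00052 had 83 reads in sensitive and none in resistant cells (at least 27.1-fold lower), and LINC00479 had 23 and none (at least 7.50-fold lower). LINC01301 and LINC00052 fell in SKMel28 as well, by log2 fold changes of -1.62 (adjusted p = 0.00124) and -1.67 (adjusted p = 3.48e-06).

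Among A375 falls of genes with more reads, LINC01419 was at 26.7, 23.9 and 25.9 CPM in sensitive and 6.75, 4.91 and 7.03 CPM in resistant libraries, without overlap (-2.06 ± 0.13, edgeR adjusted p = 8.55e-17). LINC01363 went from 10.7 ± 1.47 to 2.76 ± 0.453 CPM (-1.98), LINC00886 from 1.70 ± 0.177 to 0.403 ± 0.129 CPM (-2.10) and LINC00327 from 0.881 ± 0.0335 to 0.0538 ± 0.0689 CPM. In sensitive SKMel28 cells LINC01363 and LINC00886 were at most 0.0319 CPM and LINC00327 was at 0.770 CPM.

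The largest A375 rises were LINC01085, from 4 reads to 161 (0.0458 to 1.68 CPM, log2 fold change 5.19 ± 0.63, edgeR adjusted p = 1.92e-09), and LINC01444, from 0.252 to 3.10 CPM (3.55 ± 0.35). LINC00668 (0.511 to 2.26 CPM, 2.10), LINC01583 (0.300 to 1.03 CPM, 1.74), LINC00880 (0.324 to 1.07 CPM, 1.69) and LINC01117 (0.244 to 0.769 CPM, 1.55) rose too. LINC00704, now MANCR and named for its link to mitosis, gained the most CPM of the 150 genes in A375 (12.8). It was at 7.87, 6.45 and 7.69 CPM in sensitive and 18.3, 21.7 and 20.4 CPM in resistant libraries (1.43 ± 0.13, adjusted p = 2.60e-12).

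**Figure D3:**
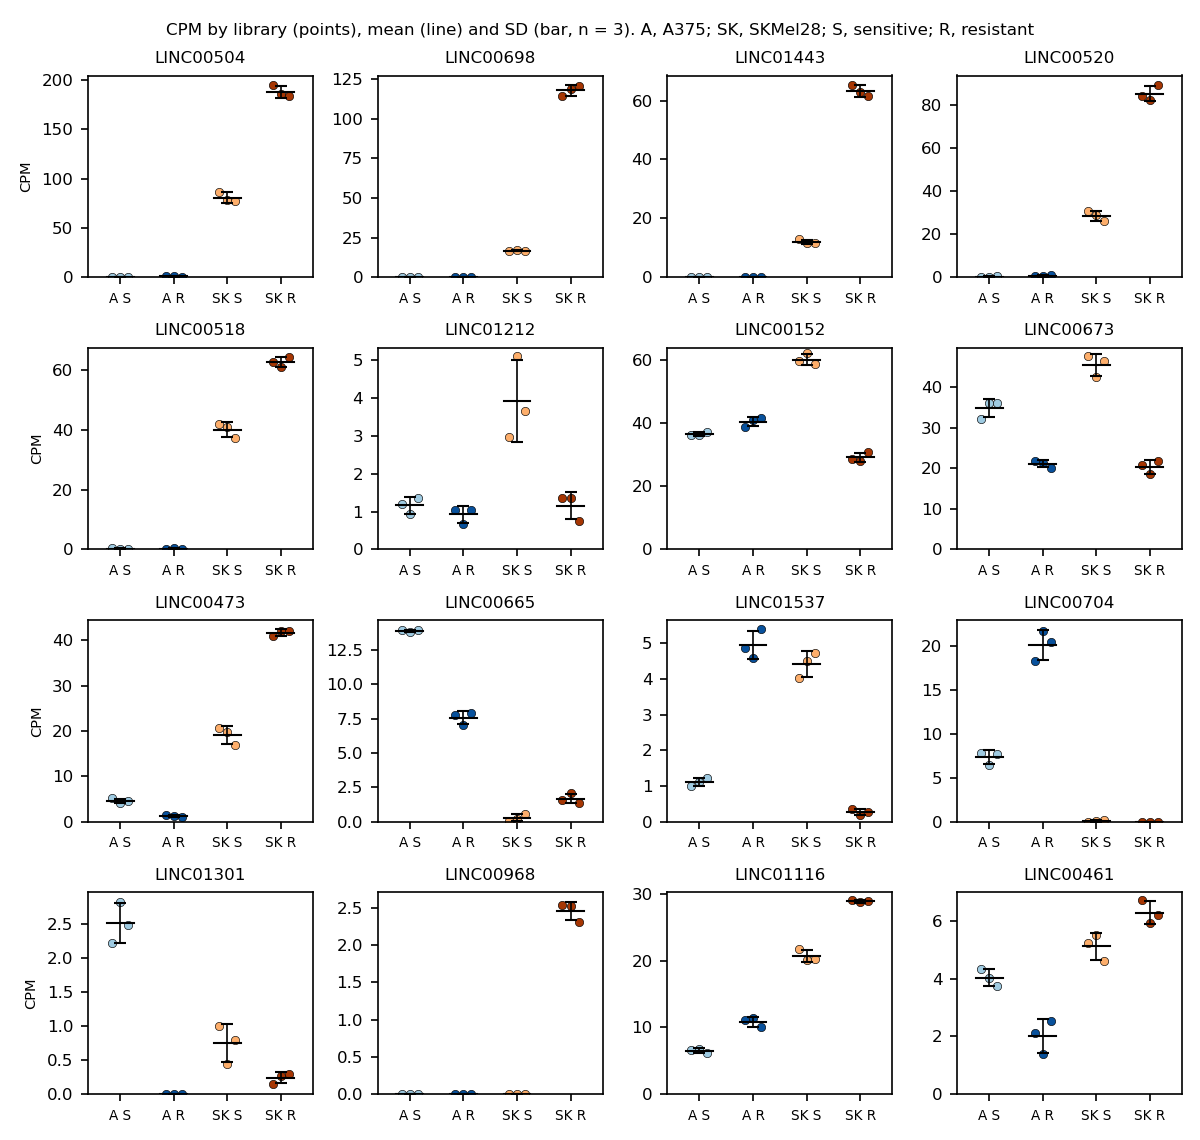
CPM of 16 of the genes in each library (points), with the group mean (line) and SD (bar, n = 3), for sensitive (S) and resistant (R) A375 (A) and SKMel28 (SK) cells; each panel has its own axis starting at 0. LINC00504, LINC00698, LINC01443, LINC00520 and LINC00518 are high in SKMel28 alone and higher in its resistant cells, while LINC01537, LINC00473 and LINC00665 change in opposite directions in the lines.

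The lines were compared by testing the difference of their changes. It was called for 76 of the 150 genes (50.7%, against 63.8% of all genes tested). Of genes called in both lines, 9 rose in both, 9 fell in both, 5 rose in A375 and fell in SKMel28, and 12 fell in A375 and rose in SKMel28; 26 were called in neither. In the same order these were 6%, 6%, 3.33% and 8% of the lincRNAs, against 8.65%, 9.83%, 10.2% and 9.86% of all genes tested.

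LINC01537, at chr11:72570660-72573229, had the clearest reversal. It was at 1.01, 1.12 and 1.23 CPM in sensitive and 4.87, 4.60 and 5.39 CPM in resistant A375 libraries. In SKMel28 it was at 4.03, 4.49 and 4.73 CPM in sensitive and 0.342, 0.176 and 0.269 CPM in resistant libraries. Resistant cells were thus high in A375 and low in SKMel28, with no overlap in either. The log2 fold changes were 2.12 ± 0.21 and -4.02 ± 0.26, and their difference was 6.14 ± 0.34 (edgeR adjusted p = 4.38e-20). Its nearest coding gene, PDE2A, which encodes a phosphodiesterase of cyclic AMP and cyclic GMP, lies 2.92 kb away and went from 6.33 to 40.4 CPM in A375 (2.64, adjusted p = 2.46e-25) and from 1.70 to 0.282 CPM in SKMel28 (-2.54, adjusted p = 2.53e-11). The LINC01537 promoter, from 250 bases before to 50 after the start in RefSeq (GRCh38.p14, chr11:72570406-72570705, plus strand), is shown because this gene turned over most clearly. The capitals mark, in order, a SOX motif (ACAANG) and a TEAD motif (GGAATG), both on the reverse strand.
LINC01537: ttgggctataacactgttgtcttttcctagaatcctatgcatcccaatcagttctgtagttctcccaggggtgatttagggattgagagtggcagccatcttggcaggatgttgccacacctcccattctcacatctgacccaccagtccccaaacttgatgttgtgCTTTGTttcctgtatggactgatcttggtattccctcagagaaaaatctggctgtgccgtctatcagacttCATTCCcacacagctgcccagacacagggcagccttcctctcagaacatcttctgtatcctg

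LINC00473, a transcript induced by cyclic AMP signalling through CREB, went the opposite way. It was at 5.12, 4.21 and 4.56 CPM in sensitive and 1.46, 1.18 and 1.02 CPM in resistant A375 libraries. In SKMel28 it was at 20.7, 19.9 and 16.8 CPM in sensitive and 40.9, 42.1 and 42.0 CPM in resistant libraries. The changes were -1.95 ± 0.16 and 1.16 ± 0.08, and the difference -3.11 ± 0.17 (edgeR adjusted p = 7.69e-20). Its span overlaps that of PDE10A, another cyclic nucleotide phosphodiesterase gene, which rose in both lines (0.54 and 2.87). Without strand in the counting, reads of the overlapping part cannot be assigned between them.

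LINC00665 was lower in resistant A375 cells (13.9 ± 0.0858 against 7.56 ± 0.469 CPM) and higher in resistant SKMel28 cells, where libraries were at 0.0640, 0.223 and 0.553 CPM in sensitive and 1.60, 2.06 and 1.37 CPM in resistant cells. LINC00479 and LINC00327 did the same, from lower levels than LINC00665 in A375 and from higher ones in SKMel28. In SKMel28 LINC00479 went from 5.77 ± 0.655 to 24.5 ± 0.737 CPM. LINC00327 went from 0.770 to 1.33 CPM there (0.83, edgeR adjusted p = 0.0330), a call that was lost without resistant replicate 2 (0.85, adjusted p = 0.0633) or 3 (0.71, adjusted p = 0.131) or sensitive replicate 3 (0.62, adjusted p = 0.141).

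LINC00704 rose in A375 and had no read in resistant SKMel28 cells, where the sensitive ones had 10 reads (at least 3.72-fold lower). The SKMel28 call rests on sensitive replicate 3, without which the fitted change was -3.30 (edgeR adjusted p = 0.106). LINC00941 stood at 11.4 CPM in sensitive and 16.7 CPM in resistant A375 cells (0.52 ± 0.10), and at 12.7 and 6.52 CPM in SKMel28 (-0.93 ± 0.11). LINC01234 stood at 22.2 and 27.9 CPM in A375 (0.30 ± 0.09) and at 7.33 and 4.91 CPM in SKMel28 (-0.54 ± 0.12).

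Some genes moved the same way in both lines. LINC00883, now DUBR, was at 8.88, 8.12 and 8.42 CPM in sensitive and 15.9, 18.0 and 19.6 CPM in resistant A375 libraries. In SKMel28 it was at 9.67, 10.0 and 11.0 CPM and then 23.9, 24.8 and 25.9 CPM. It rose by 1.04 ± 0.09 and 1.31 ± 0.09, and the difference did not pass (-0.28 ± 0.13, edgeR adjusted p = 0.0572). LINC01366 rose from 0.756 to 1.29 CPM in A375 (0.76, adjusted p = 0.00714; 0.59 with adjusted p = 0.0658 without resistant replicate 1) and from 3.62 to 14.3 CPM in SKMel28 (2.02).

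LINC00673, whose transcript has been linked to turnover of the phosphatase PTPN11, fell in both lines. It was at 32.2, 35.9 and 36.1 CPM in sensitive and 21.8, 21.2 and 20.1 CPM in resistant A375 libraries. In SKMel28 it was at 47.7, 42.5 and 46.3 CPM in sensitive and 20.7, 18.5 and 21.8 CPM in resistant libraries. The groups did not overlap, and the falls were -0.75 ± 0.07 and -1.13 ± 0.07, larger in SKMel28 by the test of the difference (0.38 ± 0.10, edgeR adjusted p = 8.37e-04). LINC00326 fell in both lines too (-1.44 and -4.45), as did LINC01605, by -1.84 in A375.

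**Figure D4:**
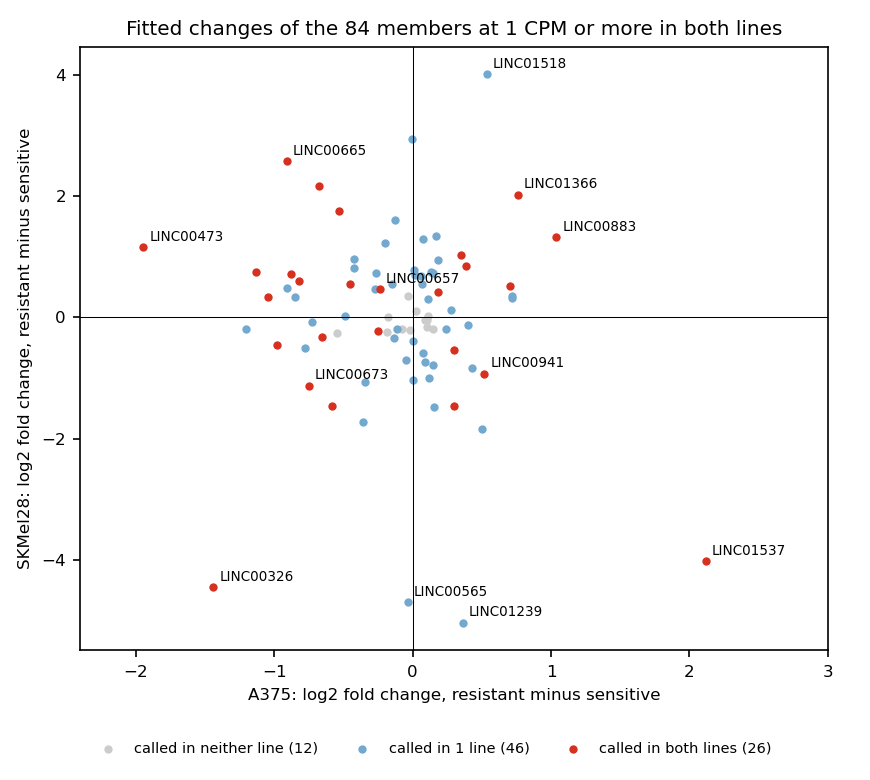
Fitted log2 fold change, resistant minus sensitive, in A375 (x axis) and SKMel28 (y axis) for the 84 genes at 1 CPM or more in both lines; colour gives the number of lines in which edgeR called the gene. LINC01537 lies alone at the lower right, LINC00473 and LINC00665 at the upper left, LINC00883 and LINC01366 at the upper right and LINC00326 at the lower left.

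A list of 30 lincRNAs with published roles held 23 of the 150 genes; 4 others stayed under 1 CPM (LINC00261, LINC00312, LINC01133 and LINC01503) and 3 symbols were not among the rows used here. Of 25 tested, 16 changed in A375 (6 rose, 10 fell; median log2 fold change -0.02, against 0.00 over all genes tested) and 19 in SKMel28 (12 rose, 7 fell; median 0.33, against -0.01). That was 64% in A375 and 76% in SKMel28, beside 51.3% and 70% of all genes tested. LINC01212, now SAMMSON, was at 2.98, 5.10 and 3.66 CPM in sensitive and 1.37, 1.35 and 0.754 CPM in resistant SKMel28 libraries, a fall without overlap (-1.73 ± 0.25, edgeR adjusted p = 7.82e-08). MITF, 31.3 kb away, rose in those cells from 483 to 749 CPM (0.67, adjusted p = 3.34e-21). In A375 SAMMSON ran from 0.670 to 1.37 CPM over the 6 libraries with overlapping groups (-0.36, adjusted p = 0.336), and MITF fell by -0.36 (adjusted p = 6.89e-09).

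Other listed genes differed between the lines. LINC00346 (5.74 to 3.68 CPM in A375, 0.240 to 1.07 CPM in SKMel28) and LINC00461, host of the microRNA MIR9-2, fell in A375 and rose in SKMel28. The SKMel28 rise of LINC00461 (5.12 to 6.29 CPM, 0.33, edgeR adjusted p = 0.0466) was lost on leaving out A375 sensitive replicate 3 (adjusted p = 0.0525) or any SKMel28 library except sensitive replicate 2 (adjusted p from 0.0554 to 0.152), and by DESeq2 (adjusted p = 0.0730). LINC00857 (1.48 to 3.40 CPM) and LINC00707 rose in SKMel28, with changes of -0.20 (adjusted p = 0.137) and 0.00 (adjusted p = 0.984) in A375. LINC00472 and LINC01116 rose in both lines, and LINC00511 fell in both, in SKMel28 by -0.32 (adjusted p = 0.0139; adjusted p = 0.176 without sensitive replicate 1 and 0.0635 without resistant replicate 2).

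LINC00963 fell in SKMel28 (20.1 to 11.8 CPM, -0.74) and LINC00339 in A375 (15.2 to 11.1 CPM, -0.49). LINC00094, now the coding gene BRD3OS, rose in A375 (33.1 to 44.6 CPM, 0.40). LINC00460 fell in A375 (5.44 to 4.04 CPM, -0.46, edgeR adjusted p = 0.0371), a call that was lost by DESeq2 (adjusted p = 0.0904), with other size factors (0.0543 and 0.0515) or no filter on low counts (0.0603), and without resistant replicate 1 or 3 or any single sensitive replicate (adjusted p from 0.0654 to 0.141). LINC00467 (-0.02 and -0.21, adjusted p = 0.930 and 0.166) and LINC00662 (0.10 and -0.05, adjusted p = 0.664 and 0.815) passed in neither line.

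A second list took 9 LINC symbols whose loci are now known to encode small proteins: 5 were among the 150, 1 (LINC00675) had no read and 3 were not among the rows used here. In SKMel28 all 5 changed, 2 rising and 3 falling, and in A375 2 of 5, 1 each way; of all genes tested 70% and 51.3% changed. LINC00998 (SMIM30, a small membrane protein) was at 65.7, 61.2 and 59.9 CPM in sensitive and 81.3, 78.5 and 82.1 CPM in resistant SKMel28 libraries, without overlap (0.41 ± 0.05, edgeR adjusted p = 6.27e-09). Its A375 rise (22.1 to 25.8 CPM, 0.18, adjusted p = 0.0146) came with overlapping libraries and was lost without sensitive replicate 2 (adjusted p = 0.0956) or 3 (adjusted p = 0.0948).

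LINC00493 (SMIM26, a small mitochondrial protein) fell in both lines, from 41.0 to 35.2 CPM and from 28.7 to 24.0 CPM (-0.25 and -0.22). LINC00116 (MTLN, mitoregulin, of the inner mitochondrial membrane) was not detected in any A375 library; it fell in SKMel28 from 28.4 ± 2.05 to 21.2 ± 1.65 CPM (-0.39, edgeR adjusted p = 1.53e-04). LINC01420 (NBDY, a microprotein of the mRNA decapping complex) fell in SKMel28 from 14.4 to 10.7 CPM (-0.40). LINC00961 (SPAAR, a lysosomal regulator of mTORC1) rested on 6 reads in resistant SKMel28 cells (at least 1.79-fold higher; adjusted p = 0.0418, but 0.330 without resistant replicate 3 and 0.0809 to 0.0819 without any single sensitive replicate). The 11 coding loci together took 131 ± 5.16 and 141 ± 3.32 CPM in sensitive and resistant A375 cells, and 163 ± 6.29 and 161 ± 3.83 CPM in SKMel28 (SD, n = 3).

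LincRNA genes often share a neighbourhood with a coding gene, and here 55 of the 150 lay within 10 kb of the nearest one, 13 of them overlapping its span; the median distance was 22.5 kb. For 124 genes the nearest coding gene was tested as well. Across these 124 gene pairs the fold changes of lincRNA and neighbour had a Pearson correlation of 0.304 in A375 and 0.491 in SKMel28, a description over pairs measured in the same libraries. Where both partners were called, 24 of 30 pairs moved the same way in A375 and 39 of 59 in SKMel28. The 12 pairs with overlapping spans had a Pearson correlation of -0.853 in A375, with 1 of 3 called pairs the same way. In SKMel28 it was 0.728, with 5 of 6. Spearman rank correlations of these 12 pairs were -0.452 and 0.623. Within 10 kb 9 of 13 called pairs moved the same way in A375 and 19 of 24 in SKMel28. Beyond 10 kb it was 15 of 17 and 20 of 35. In these few pairs the nearer ones moved together more often in SKMel28 only. How often other neighbouring genes moved together is not given here. Neighbours can share the shift of a whole chromosome arm. Within 10 kb unstranded counting can also pass reads from a gene to its neighbour. Neither part was tested.

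Pairs other than LINC01537 and PDE2A show the range. LINC00968 and PENK, the proenkephalin gene 71.7 kb away, appeared together in resistant SKMel28 cells: PENK was at 0.0205 CPM in sensitive and 2.69 CPM in resistant ones (6.81, edgeR adjusted p = 3.23e-13). LINC00461 and MEF2C, a transcription factor gene 26.1 kb away, fell together in A375 (-1.04 and -4.39). In SKMel28 MEF2C rose by 1.62, and LINC00461 had the unstable call given above. SAMMSON and MITF went apart in SKMel28, and so did LINC00511 and the zinc transporter gene SLC39A11 (-0.32 and 1.02). The SKMel28 call of LINC00511 was lost on leaving out single libraries, as given above.

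LINC01443 and LINC01444 lie beside ANKRD30B on 18p, LINC01444 inside the span of LINC01443 on the opposite strand, so their reads can be confused. LINC01443 was at 12.8, 11.6 and 11.7 CPM in sensitive and 65.3, 63.0 and 61.4 CPM in resistant SKMel28 libraries (2.43 ± 0.08, edgeR adjusted p = 4.42e-28) and had at most 0.0638 CPM in A375. LINC01444 was the A375 riser of the pair, at 0.318, 0.193 and 0.246 CPM in sensitive and 3.02, 3.03 and 3.25 CPM in resistant libraries, and moved by -0.07 (adjusted p = 0.891) in SKMel28. ANKRD30B rose in both lines (2.65 and 0.33).

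**Figure D5:**
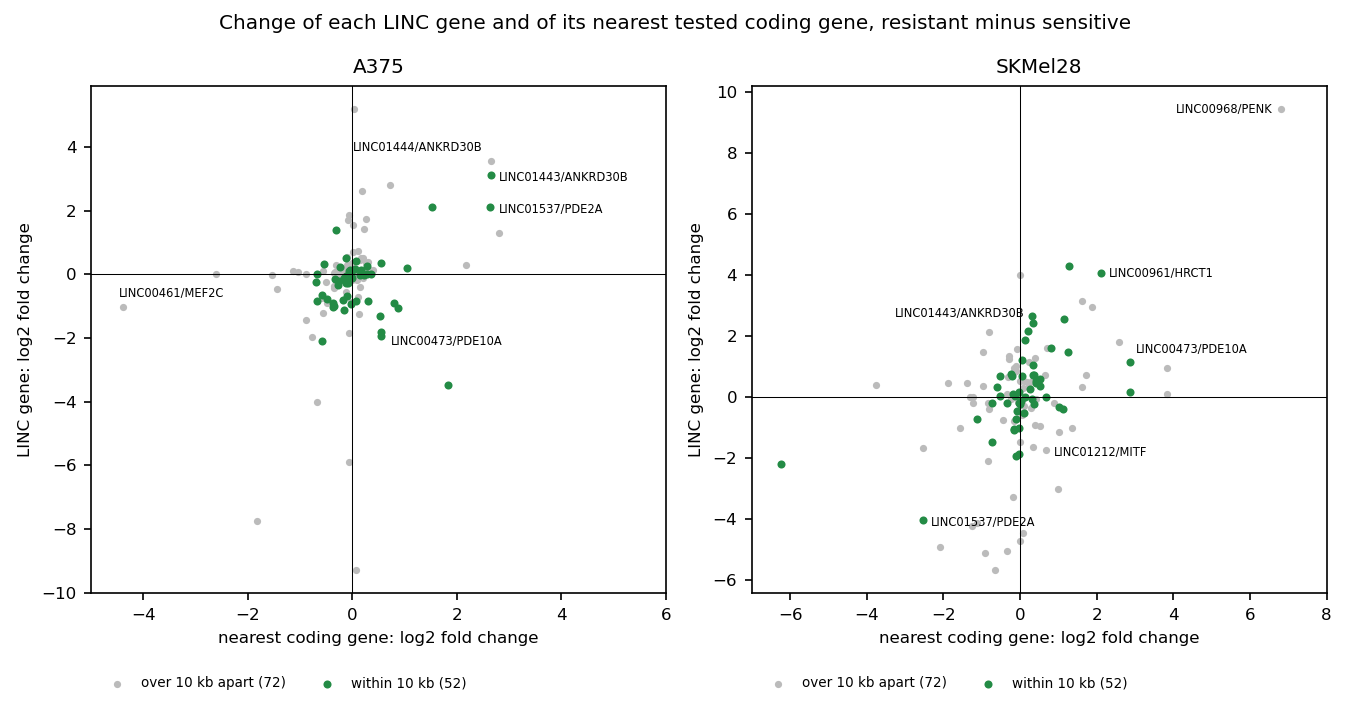
Log2 fold change, resistant minus sensitive, of each LINC gene (y axis) against its nearest coding gene (x axis) for 124 pairs, in A375 (left) and SKMel28 (right); green points lie within 10 kb of each other (52 pairs). LINC01537 and PDE2A sit high together in A375 and low together in SKMel28, and LINC00968 and PENK lie at the top right in SKMel28.

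Some chromosome arms were shifted as a whole in resistant A375 cells. On 1p, 13q, 20p and 20q the median coding gene moved by -0.52, -0.43, -0.47 and -0.36. These arms held 23 of the 150 genes, of which 12 were called, all 12 lower; of the 127 elsewhere 52 were called. The share called on these arms is close to the 51.3% of all genes tested that were called either way. Of all genes tested, 26.3% were called lower, beside 12 of the 23 on these arms. The arms were picked by the shift of their coding genes, so a share over the whole genome is no matched comparison. NORAD, LINC00493, LINC00327, LINC00339 and LINC00346 are among the 12, and so are LINC00460 and LINC01232. LINC01232 had overlapping libraries (-1.04, edgeR adjusted p = 0.0384), and its call was lost by DESeq2 (adjusted p = 0.0823) and without resistant replicate 1 or 3 or sensitive replicate 2 or 3 (adjusted p from 0.109 to 0.224). In SKMel28 12 arms were shifted by over 0.25 on the log2 scale. They held 46 of the 150 genes, of which 31 were called. Elsewhere 64 of 104 were called, and 70% of all genes tested were. Of the 31, 20 moved in the direction of their arm. How often other genes followed a shifted arm is not given here for either line. What moved the arms was not tested.

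LINC01116 and LINC01117 start on opposite strands of a shared stretch near the HOXD cluster on chromosome 2, and their GENCODE spans overlap, so reads there can be confused. LINC01116 was at 6.63, 6.77 and 6.07 CPM in sensitive and 11.1, 11.4 and 9.98 CPM in resistant A375 libraries, and at 20.7 ± 0.911 and then 28.9 ± 0.187 CPM in SKMel28 (SD, n = 3). It rose in both without overlap (0.70 ± 0.09 and 0.52 ± 0.07). LINC01117 rose in A375 alone (1.55 ± 0.42, edgeR adjusted p = 0.00190; SKMel28 -0.28, adjusted p = 0.426), and its change differed between the lines (1.83, adjusted p = 0.00226). The promoter windows of the pair overlap by 244 bases on opposite strands, chr2:176637560-176637859 (minus) and chr2:176637504-176637803 (plus). They are shown because the windows of both genes share this stretch of DNA, and promoter activity was not measured. The capitals mark the same TEAD motif (GGAATG), read from either strand.
LINC01116: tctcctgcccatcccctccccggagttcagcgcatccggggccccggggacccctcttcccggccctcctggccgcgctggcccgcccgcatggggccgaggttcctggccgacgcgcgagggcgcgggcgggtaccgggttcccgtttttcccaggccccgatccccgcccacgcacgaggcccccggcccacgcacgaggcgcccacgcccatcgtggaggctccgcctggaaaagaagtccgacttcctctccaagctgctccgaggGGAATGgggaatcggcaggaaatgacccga
LINC01117: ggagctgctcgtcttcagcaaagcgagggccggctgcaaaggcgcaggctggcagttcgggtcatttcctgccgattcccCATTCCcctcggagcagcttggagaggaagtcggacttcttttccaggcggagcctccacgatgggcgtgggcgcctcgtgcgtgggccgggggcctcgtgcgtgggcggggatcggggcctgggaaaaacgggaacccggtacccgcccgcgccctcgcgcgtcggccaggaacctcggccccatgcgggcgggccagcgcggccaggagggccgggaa

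In all, 18 of the 108 genes with a RefSeq promoter had another promoter on the opposite strand overlapping theirs. Among the 18 are both LINC00526 and LINC00667, and both LINC01116 and LINC01117, which overlap each other. The share over all promoters is not given here. Motifs were counted in the 125 promoters of the 108 genes and in all 35116 promoters of the same 300 bases, on both strands. The AP-1 motif TGANTCA occurred in 12.8% against 7.71% of all promoters. The TEAD motif GGAATG was in 15.2% against 14.03%, the SOX motif ACAANG in 30.4% against 35.5%, the E-box CACGTG in 8% against 7.26%, the M-box TCATGTG in 3.2% against 2.92% and the CRE TGACGTCA in 1.6% against 1.85%. Among the 16 genes with the AP-1 motif, A375 had 1 called higher and 4 called lower, and SKMel28 had 7 and 4. Over all 108 genes with a promoter these counts were 21 and 29 in A375, and 34 and 31 in SKMel28.

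The promoters of 3 of the 16 are shown because their genes are among the abundant ones described above and went different ways: LINC00152 fell and LINC01443 rose in resistant SKMel28 cells, and LINC00704 rose in resistant A375 cells. They lie at chr2:87455177-87455476 (plus), chr18:14946017-14946316 (plus) and chr10:4678021-4678320 (minus) in GRCh38.p14. Capitals mark the AP-1 motif TGANTCA and, near the upstream end of LINC00152, a SOX motif; none of the marked motifs overlaps another. LINC00152 holds the AP-1 motif at 19 and 9 bases before its start, LINC01443 at 27 bases and LINC00704 at 225 and 126 bases before theirs. A match is a string of letters, not a measured site.
LINC00152: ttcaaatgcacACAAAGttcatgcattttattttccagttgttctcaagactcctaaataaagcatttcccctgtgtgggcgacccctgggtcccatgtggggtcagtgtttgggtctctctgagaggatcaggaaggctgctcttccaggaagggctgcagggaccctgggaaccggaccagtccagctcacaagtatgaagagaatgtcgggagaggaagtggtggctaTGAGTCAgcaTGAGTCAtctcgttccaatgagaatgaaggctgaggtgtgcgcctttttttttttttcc
LINC01443: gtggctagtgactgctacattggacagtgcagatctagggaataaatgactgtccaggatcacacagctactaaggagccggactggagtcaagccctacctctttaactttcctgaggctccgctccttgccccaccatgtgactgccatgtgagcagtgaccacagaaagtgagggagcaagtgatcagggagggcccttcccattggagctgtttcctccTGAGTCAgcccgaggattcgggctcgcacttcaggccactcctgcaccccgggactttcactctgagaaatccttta
LINC00704: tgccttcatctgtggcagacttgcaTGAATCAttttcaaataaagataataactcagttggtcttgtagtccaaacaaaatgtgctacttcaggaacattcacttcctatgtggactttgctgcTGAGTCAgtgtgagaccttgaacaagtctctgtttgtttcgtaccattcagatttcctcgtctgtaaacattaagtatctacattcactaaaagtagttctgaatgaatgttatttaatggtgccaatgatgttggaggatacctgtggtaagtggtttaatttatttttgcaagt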

How the data were processed

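The deposited files hold raw read counts per gene symbol, 1 file per library, for A375 and SKMel28 cells in a sensitive and a resistant form. Per the submitters' processing notes HISAT2, StringTie and GRCh38.p12 were used, while the names the authors gave the deposited count files point to STAR, untrimmed reads and unstranded counting on hg38; which aligner made the counts is not settled. Summary lines for unassigned reads (15.1% to 19.5% of reads) were left out, and library totals of gene reads ran from 28496518 to 37721363, where 3 reads over a group are 0.0282 to 0.0315 CPM.

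The 26499 symbols were tested in R 4.3.3 with edgeR 4.0.16 (limma 3.58.1), after filterByExpr kept 15506 and with TMM scaling. A single robust quasi-likelihood fit with 4 group means had 8 residual degrees of freedom. All adjusted p-values in the text, unless DESeq2 is named, are two-sided edgeR values with Benjamini-Hochberg adjustment over all 15506 genes, called below 0.05. Fold changes come from this fit, and printed CPM from library totals without TMM. The fit was tested on simulated data. Alternatives were DESeq2 1.42.0, other scalings, no filter, other level limits, a replicate block and each library left out. Other tables were made with pandas 2.3.3 and scipy 1.17.1.

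Genes were matched by symbol to RefSeq (150) and GENCODE 29 (141, used for exon lengths and transcripts), both on GRCh38; promoters came from RefSeq (GRCh38.p14). Chromosome arms were split at approximate centromere positions, and arm medians used coding genes at 2 CPM or more.

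The genes and the lists were chosen with earlier results of these data known. The lists were 30 lincRNAs with published roles, 9 small-protein loci, 44 names of long noncoding RNAs without LINC, and cell type markers. The markers were of melanocytes, keratinocytes, leukocytes, endothelial cells and fibroblasts. Named genes were the 10 highest per kb, the 8 largest rises and falls per line among called genes without overlap, the 6 most in excess in each sensitive line, list members, the 4 on either side of the level limit, up to 4 called in opposite directions and up to 5 in the same direction each way, and the nearest coding gene of each. LINC01444's antisense pair, LINC00632, MIR4435-2HG and genes with large gains or losses in CPM were named after their values were seen.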

Additional observations from a re-analysis of the deposited data

Results flagged for a closer look

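The change from sensitive to resistant cells differed between A375 and SKMel28 for 76 of the 150 lincRNAs by edgeR's test of the difference itself (adjusted p below 0.05, against 63.8% of all genes tested). Each of the 8 genes listed here was called in opposite directions in the lines, and the value is the A375 log2 change minus the SKMel28 one. The difference was 6.14 for LINC01537, 1.45 for LINC00941 and 0.85 for LINC01234, which were higher in resistant A375 and lower in resistant SKMel28 cells. It was -3.11 for LINC00473, -3.49 for LINC00665 and -4.83 for LINC00327, which went the opposite way. LINC00704 (6.33) and LINC00479 (-8.03) had no read in a group, so their fitted differences depend on the prior count and are no bounds.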

How the results depend on the processing

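No result reversed. Of 131 single-gene changes, 15 lost their call under some alternative; those that bear on the text are given there. With NORAD (LINC00657) left out, the resistant over sensitive ratio of the summed share in A375 was 1.00 in place of 0.952. The count of called small-protein loci in A375 ranged from 1 to 2 on leaving out single libraries, and was 1 without A375 sensitive replicate 2 or 3. The 64 calls in A375 became 57 by DESeq2 and 51 to 66 with a library left out, and the 95 in SKMel28 became 92 and 84 to 97. The SKMel28 share ratio ranged from 1.31 to 1.35. With the limit at 0.5 or 2 CPM the rule took 197 or 114 genes in place of 150. Same-numbered libraries did not deviate together (residual correlations -0.00847 to 0.0710). With the number as a replicate block 62 genes were called in A375, 94 in SKMel28 and 76 in the difference. The block was set within each line, so its contrast between the sensitive lines is at the level of replicate 1. Its 109 calls are therefore no like-for-like check on the 123 of the main fit. At 28.5 reads or more per CPM, genes near 0.1 CPM rest on a few reads per library.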

Other observations

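Long noncoding RNAs without a LINC symbol were measured in the same libraries. Of 44 listed, 32 reached 1 CPM in a group, 8 stayed under it and 4 symbols were not among the rows. Of these 4, NORAD, SAMMSON and CYTOR are present under the LINC symbols described above, and the other symbol was SNHG14. Of 35 tested by edgeR, 22 changed in A375 (6 rose, 16 fell; median log2 fold change -0.15) and 24 in SKMel28 (5 rose, 19 fell; median -0.55), against medians of 0.00 and -0.01 over all genes tested. That was 62.9% in A375 and 68.6% in SKMel28, beside 51.3% and 70% of all genes tested. UCA1, a lncRNA of bladder and other carcinomas, is named here after its values were seen. It was at 54.6 CPM in sensitive and 165 CPM in resistant A375 cells (1.57), and at 1.29 and 0.0190 CPM in SKMel28 (-5.82). The level of 0.0190 CPM is under the floor of 3 reads over a group (0.0282 to 0.0315 CPM), so the size of the SKMel28 change is uncertain.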
